A study of Homo sapiens with 4 samples.

Results

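Lactate export and pH regulation were examined through 6 genes, CA2, CA12, SLC16A1, SLC16A3, SLC4A7 and BSG, as read by the probe sets that the platform annotation pairs with exactly 1 of them. The annotation listed such probe sets for 4 of the 6 genes, 13 of the 54613 probe sets in all. SLC16A1 and SLC16A3 had none listed and were not analysed here. The cells were KYSE170, an established line from a human oesophageal squamous cell carcinoma and were profiled on Affymetrix arrays that read a gene through short oligonucleotide probes. There were 2 arrays of cells given ethyl-3,4-dihydroxybenzoate (EDHB) at 50 µg/ml for 12 h and 2 of cells left untreated. EDHB inhibits prolyl hydroxylases, the oxygen-dependent enzymes that mark hypoxia-inducible factors (HIF) for degradation, and the study asked which genes differ after exposure to it. Whether the numbered replicates came from separate cultures is not stated in the labels. The p-values therefore reflect only how far these arrays spread, which may be technical, and the small number of arrays limits the precision.

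Glycolytic cells turn pyruvate into lactate and export it with a proton through monocarboxylate transporters of the SLC16 family, which reach the cell surface in complex with basigin, the product of BSG. Carbonic anhydrases interconvert carbon dioxide and bicarbonate, CA2 in the cytosol and CA12 at the outer face of the plasma membrane. SLC4A7 carries sodium and bicarbonate into the cell and so counters acid there. Several genes of this system, SLC16A3 and CA12 among them, are known to be induced by hypoxia in other cells.

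In the deposited table the values of replicate 2 were out of register with those of replicate 1, and the rows were put back in order from the levels of the untreated arrays for 54459 probe sets. The rows of all 13 probe sets of the 4 genes were recovered, each with a posterior that rounded to 1. The change within replicate 1 does not depend on this step and is given beside the fitted difference of each of the 4 genes. Median intensity was 23.3 to 23.5 on the 4 arrays. Of 7 squamous markers, 4 were measured. KRT13, KRT5 and SOX2 lay above the median level of all restored probe sets, a log2 intensity of 4.54, and KRT14 lay below it. All 3 leukocyte markers lay below that level. The fibroblast markers COL1A1 and PDGFRB, the endothelial marker PECAM1, the columnar marker CDX2 and the erythroid marker HBB lay above it. They ranged from 4.64 to 6.31 with EDHB and from 4.72 to 6.43 without, and their part in the results was not tested. The other measured markers of these types lay below that level, namely COL1A2 and LUM, VWF, KRT20 and VIL1, and ALAS2. Levels below 4.54 were not shown to be above background.

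CA2 was the member with the largest difference. Its probe set, 209301_at, had log2 intensities of 9.65 and 9.55 on the EDHB arrays, against 9.08 and 9.14 on the untreated arrays. Both EDHB arrays lay above both untreated arrays. The means were 9.60 ± 0.07 with EDHB and 9.11 ± 0.04 without (SD, n = 2 each), a difference of 0.49 ± 0.08 (SE) log2 units or 1.41-fold. The 95% interval of the difference, from the limma fit and not adjusted for the number of genes, ran from 0.28 to 0.70. Within replicates 1 and 2 the differences were 0.57 and 0.41. In bulk RNA of this kind, a different share of expressing cells and a different amount of RNA per cell cannot be told apart. The difference exceeded the spread between arrays of a group, but CA2 did not pass the threshold of 0.05 over the 19751 genes tested (adjusted p = 0.124 in limma with the default prior, Benjamini-Hochberg). It passed with an intensity trend in limma's prior variance (adjusted p = 0.0329) and after removal of dim genes (adjusted p = 0.0395), a setting that called 3.44% of the genes it tested. In a fit over single probe sets in place of genes, the same values gave an adjusted p of 0.227 with the default prior and 0.0769 with the trend. Over all genes, 1.84% had a log2 difference at least as high as that of CA2, and in 1.71% both replicates differed by at least its smaller within-replicate value.

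CA12 was read at levels near or below the median of all restored probe sets, and no limit of detection was estimated. Its 7 probe sets ranged from 2.47 to 4.99 on the log2 scale over all arrays, and in 5 of them both group means lay below 4.54. The brightest, 204509_at, had 4.64 and 4.99 with EDHB, against 4.75 and 4.60 in untreated cells. The groups overlapped, since EDHB replicate 1 lay between the untreated arrays. The difference was 0.14 ± 0.14 (SE), with a 95% interval of -0.23 to 0.50 (adjusted p = 0.696 in limma), and it was -0.11 within replicate 1 and 0.39 within replicate 2. Without EDHB replicate 2 it was -0.04, and without EDHB replicate 1 it was 0.32. The next probe set, 241230_at, had 4.60 and 4.73 with EDHB, against 4.46 and 4.53 in untreated cells, a difference of 0.17 ± 0.09 (SE). There the EDHB arrays lay above the untreated ones by a small margin (adjusted p = 0.498 in limma over probe sets). Over the 7 probe sets the differences ran from -0.24 to 0.17 and did not share a sign, with 4 above 0 and 3 below, and the lowest adjusted p was 0.463.

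SLC4A7, the sodium bicarbonate cotransporter, was read by 4 probe sets at very different levels. The brightest, 207604_s_at, had 7.02 and 6.998 with EDHB, against 7.11 and 7.19 in untreated cells. Both EDHB arrays lay below both untreated arrays, by a small margin. The difference was -0.14 ± 0.08 (SE), -0.09 within replicate 1 and -0.19 within replicate 2, with a 95% interval of -0.34 to 0.06 (adjusted p = 0.447 in limma). The second, 209884_s_at, had 6.99 and 6.82 with EDHB, against 6.94 and 7.14 in untreated cells, so the groups overlapped, and its replicates disagreed in sign (0.05 and -0.32). The probe sets 210286_s_at and 207603_at lay between 2.73 and 3.44, below the median level. The first differed by -0.08 within replicate 1 and -0.13 within replicate 2, and the second by 0.27 and -0.40. All 4 fitted differences of SLC4A7 were below 0, but the replicates shared a sign in 2 of the 4 probe sets only, and probe sets of 1 gene share the same RNA and are not replicates.

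BSG, which encodes the chaperone that carries monocarboxylate transporters to the membrane, had log2 intensities of 8.71 and 8.76 with EDHB, against 8.83 and 8.70 in untreated cells, on its single probe set 208677_s_at. The groups overlapped. The means were 8.74 ± 0.04 with EDHB and 8.77 ± 0.09 without (SD, n = 2 each). The difference of -0.03 ± 0.09 (SE) had a 95% interval of -0.25 to 0.19 (adjusted p = 0.905 in limma) and was -0.12 within replicate 1 and 0.06 within replicate 2.

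**Figure D1:**
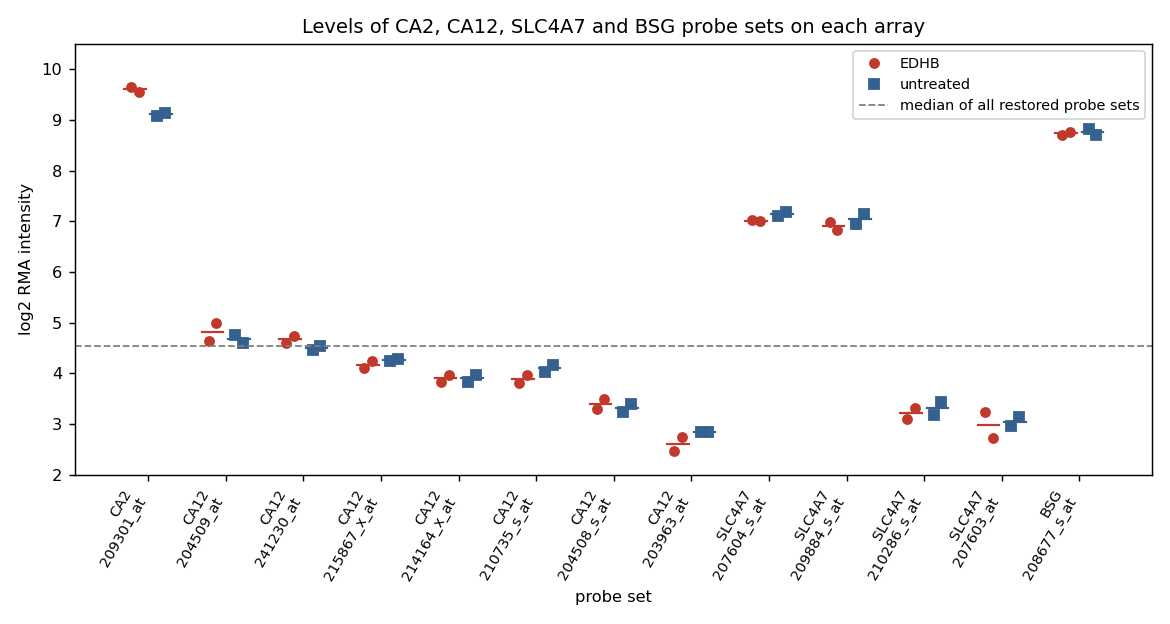
Log2 RMA intensity (vertical axis) of the 13 probe sets of CA2, CA12, SLC4A7 and BSG, with EDHB arrays as red circles left of the untreated arrays as blue squares, 2 each, and short lines at the group means. The gap between the groups is widest for CA2, and most CA12 probe sets lie under the dashed line at 4.54, the median of all restored probe sets.

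In the default fit 0 of the 4 genes passed, against 0.0101% of all genes, and 1 of 4 had an unadjusted p under 0.05, against 16.8% of all genes. The trend fit called 1 of the 4, CA2, against 1.9% of all genes. Over single probe sets 0 of 13 passed in the default fit, against 0% of all probe sets, and 0 of 13 in the trend fit, against 0.103%, with 1 of 13 at an unadjusted p under 0.05 in the default fit, against 13.4%. Both EDHB arrays lay beyond both untreated arrays in 2 of the 4 genes, higher for CA2 and lower for SLC4A7, whereas 45.8% of all genes were separated in one direction or the other. Within replicate 1 alone, 0 of the 13 probe sets differed by 1.5-fold or more, against 2.11% of all probe sets. The 4 genes had a median log2 difference of 0.05, against -0.00139 over all genes. Their median was -0.10 within replicate 1 and 0.22 within replicate 2, against -0.003 and 0.005 over all genes. Of the 4 fitted differences 2 were above 0 and 2 below, but those of CA12 and BSG differed in sign between the replicates. The split therefore does not settle whether the 4 genes share a direction.

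**Figure D2:**
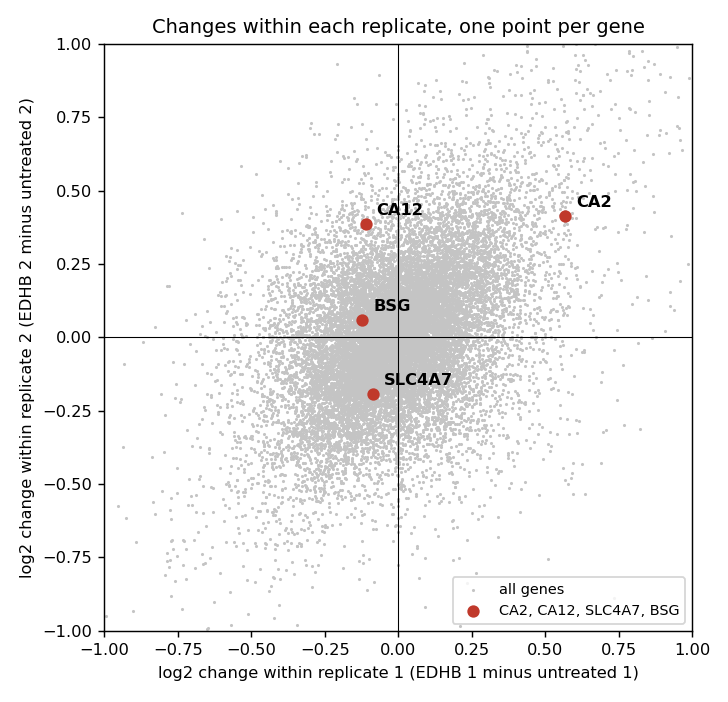
Log2 change within replicate 2 (vertical axis) against that within replicate 1 (horizontal axis), each EDHB minus untreated, for all genes in grey and CA2, CA12, SLC4A7 and BSG in red, with 94 genes outside the plotted range. CA2 stands at 0.57 and 0.41, SLC4A7 is below 0 in both replicates, and CA12 and BSG differ in sign between the replicates.

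The genes whose 4 array values, each centred on its own mean, lay closest to those of CA2 were ALAS1, B3GNT2 and NUP62CL, among genes above the median level. ALAS1 encodes the rate-limiting enzyme of haem synthesis and B3GNT2 a glycosyltransferase. Their root mean square distances from CA2 over the 4 arrays were 0.0103, 0.0116 and 0.0136 log2 units. The differences were 0.51 for ALAS1, 0.48 for B3GNT2 and 0.50 for NUP62CL. With 4 arrays in 2 groups, this likeness is a description only.

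A wider list held 61 other genes of lactate and proton handling, of which 50 were measured and 22 lay above the median level. None of the 50 passed in the default or the trend fit in limma, in either direction. At an unadjusted p under 0.05 in the default fit 2 were higher, against 8.81% of all genes, and 2 lower, against 7.98%. The list's median difference was -0.00808, against -0.00139 over all genes, and its differences ran from -0.32 to 0.30. Both EDHB arrays lay beyond both untreated arrays in 8 genes that were higher and 8 that were lower, against 23.2% and 22.5% of all genes.

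LDHA, the lactate dehydrogenase subunit that favours the conversion of pyruvate to lactate, had log2 intensities of 13.04 and 13.04 with EDHB, against 12.88 and 12.88 in untreated cells. The arrays of each group nearly coincided, and the difference of 0.16 ± 0.07 (SE) was nearly equal within both replicates (0.16 and 0.15). It did not pass in either fit (adjusted p = 0.371 with the default prior and 0.0713 with the trend in limma). LDHB, the subunit that favours the reverse reaction, had 13.17 and 13.14 with EDHB, against 13.19 and 13.15 in untreated cells. Its difference was -0.02 ± 0.07 (SE), within the spread of the arrays.

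Embigin (EMB), the other chaperone of monocarboxylate transporters, had 7.80 and 7.76 with EDHB, against 7.84 and 7.78 in untreated cells, and differed by -0.03 ± 0.08 (SE). The chloride bicarbonate exchanger SLC4A2 had 6.69 and 6.41 with EDHB, against 6.71 and 6.63 in untreated cells, and differed by -0.12 ± 0.12 (SE). The groups overlapped in both genes. By class, 5 of the 10 measured genes of monocarboxylate transport were above 0 and 5 below, with a median of 0.03, and 2 lay below the median level. Bicarbonate transporters had a median difference of 0.02 over 9 genes, of which 5 lay below the median level. Sodium-proton exchangers and their partners had 0.01 over 8, of which 4 lay below that level. The other carbonic anhydrases had -0.01 over 12, of which 10 lay below it. The 4 receptors for protons or lactate, GPR132, GPR4, GPR65 and HCAR1, had a median difference of -0.30 on their brightest probe sets, at levels that all lay below the median level and were not shown to be above background.

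**Figure D3:**
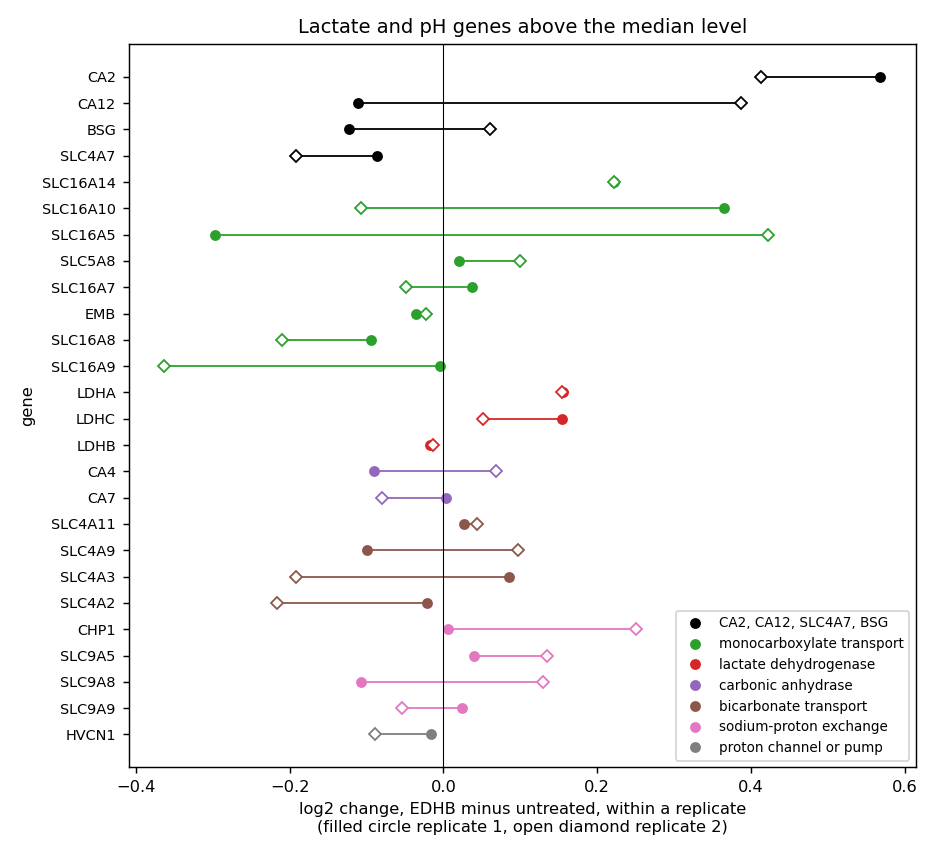
Log2 change, EDHB minus untreated, within replicate 1 (filled circles) and replicate 2 (open diamonds) for CA2, CA12, SLC4A7 and BSG in black and for the 22 genes of the wider list above the median level, coloured by class. CA2 is at or above 0.41 in both replicates, which holds for no other gene shown, and LDHA has nearly the same change in each replicate.

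The promoters of these genes are shown because HIF binds DNA at the core motif spelled ACGTG or GCGTG, and EDHB blocks the enzymes that mark HIF for degradation. RefSeq windows (GRCh38.p14) were listed for 4 of the 6 genes, CA12, SLC16A3, SLC4A7 and BSG, in 10 windows, and these and the windows of LDHA were read. The 250 bases before each start were searched for both spellings on both strands. At least 1 match stood in 43.2% of all 35116 windows, so a match is common. The stretches below, of 60 bases each and 5′ to 3′ on the gene's strand, begin 20 bases before the first match where the window allows, with matches in capitals.
CA12 chr15:63382037-63382096 (- strand): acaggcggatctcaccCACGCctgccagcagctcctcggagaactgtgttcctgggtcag
SLC4A7 chr3:27484483-27484542 (- strand): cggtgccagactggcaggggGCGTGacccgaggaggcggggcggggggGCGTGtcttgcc
BSG chr19:572383-572442 (+ strand): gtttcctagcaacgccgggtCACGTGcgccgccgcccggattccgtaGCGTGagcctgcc
LDHA chr11:18394358-18394417 (+ strand): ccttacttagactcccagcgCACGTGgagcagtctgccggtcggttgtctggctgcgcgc
The window of CA12 held 1 match, that of SLC4A7 2, that of BSG 6 and that of LDHA 5. The palindrome CACGTG, which is also the E-box of MYC and its relatives, reads as a match on both strands and counts as 2. A second listed start of SLC4A7 and one of BSG had 0 matches, and a second one of LDHA had 1. The 5 windows of SLC16A3, whose expression was not analysed here, held 0, 2, 0, 3 and 1 matches, in order along the chromosome. A match is a description of these letters and says nothing about binding in these cells.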

How the data were processed

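Deposited values were linear intensities (1.55 to 13393), 1 for each probe set on each array, made by the authors with RMA, which corrects background, equalises the distributions of the arrays and summarises probes, per the submitters' processing notes; its version is not given in the sources used here. They were log2-transformed without a pseudocount. The replicate 2 values stood in the order of a separately sorted sheet, with 148 probe sets at least 2-fold higher, 45 at least 2-fold lower and then 54419 others in ID order, and 1 empty cell. This layout is an inference from the values. The lists were set from the EDHB minus untreated changes, and 3 probe sets past 2-fold in replicate 1 were treated as standing among the others. Within this layout, a forward-backward alignment on untreated log2 levels (Student's t density, scale 0.15, 3 degrees of freedom) restored 54459 probe sets (99.7%) at a posterior of at least 0.95. Of the replicate 2 lists, 92 of 148 higher and 21 of 45 lower values were restored. The shares over all genes therefore leave out some strongly changed probe sets. Since rows were matched by closeness of the untreated levels, the spread between untreated arrays is favoured to be small. The correlation of the EDHB arrays across probe sets was 0.418 as deposited and 0.997 once restored. EDHB 1 and untreated 1 correlated at 0.996, so matching rows of similar level would by itself give a high value. The log2 changes within the 2 replicates correlated at 0.0438 as deposited and 0.376 once restored.

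Names came from the platform annotation, which gave 41091 probe sets 1 gene. The brightest restored probe set stood for a gene, with no filter on dim genes. EDHB and untreated cells were compared with limma 3.58.1 in R 4.3.3 (lmFit, eBayes, Benjamini-Hochberg adjusted p under 0.05) on all 4 arrays without a block, with 2 residual and 2.99 prior degrees of freedom. Alternatives were an intensity trend, a replicate block, each array left out, arrays centred on their medians, cyclic loess, dim genes removed, a posterior minimum of 0.5, the mean over probe sets and the replicate 1 pair alone. Restoration, naming and figures used Python 3.11.15. Restoration and fitting were tested on simulated data. The table simulated for restoration was built with the inferred layout and the density of the alignment, so it could not check that layout. The members, the wider list and the tests were chosen with earlier results of these data known. Named beyond the members were LDHA, LDHB, CA9, EMB and SLC4A2 (CA9 had no probe set listed), list genes called in either fit or changed by at least 0.5 log2 units in both replicates (0 genes), and the 3 genes most like the member with the largest change. The receptors, the markers and SLC16A1-AS1 were named outside this rule.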

Additional observations from a re-analysis of the deposited data

How the results depend on the processing

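CA2 stayed higher with EDHB under all 11 alternative fits, with log2 differences of 0.44 to 0.54, but most of these could not have reversed it. The trend, block, dim-gene, posterior and probe-set-mean settings left its values as they were, since CA2 has 1 probe set. Leaving out an array could not change the sign, since both EDHB arrays lay above both untreated arrays. Median centring and cyclic loess did alter the values, and each gave 0.50. In the fits that kept every array, adjusted p ran from 0.0329 to 0.278 in limma. The CA2 difference was 0.49 with the intensity trend and 0.49 with dim genes removed, the settings in which CA2 passed. The count of measured members called higher was 1 in each, against 0 in the fit as reported. Over all genes the trend called 1.9% and the setting without dim genes 3.44%, against 0.0101% in the fit as reported. Leaving out 1 array at a time, with the single array left in a group taken to vary as the other group does, gave 0.44 to 0.54 for CA2, -0.18 to -0.10 for SLC4A7, -0.04 to 0.32 for CA12 and -0.10 to 0.03 for BSG, and 0 members called. CA12 turned to -0.039 without EDHB replicate 2 and to -0.021 as the mean over its probe sets, and BSG turned to 0.033 without untreated replicate 1; the cause was not tested. With the replicate block CA2 was 0.49 (adjusted p = 0.278) and no call among the members or the wider list changed. Deviations of arrays with the same number correlated at 0.215 across genes, but with 2 pairs the numbers were not taken to pair the samples. In the replicate 1 pair alone, CA2 was 0.57. No measured gene of the wider list was called under any of the 11 alternatives. Low intensity limits CA12, the receptors and the other genes of the wider list below the median level.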

Other observations

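SLC16A1-AS1, an antisense transcript at the locus of the lactate transporter SLC16A1, was looked at after its values were seen. Its brightest probe set, 1560579_s_at, had log2 intensities of 6.52 and 6.44 with EDHB, against 6.91 and 6.92 in untreated cells. The difference was -0.43 ± 0.08 (SE), -0.39 within replicate 1 and -0.47 within replicate 2, and it did not pass over all genes (adjusted p = 0.131 in limma with the default prior and 0.0632 with the trend). The other 2 probe sets differed by -0.31 and -0.17. On the brightest probe set both EDHB arrays lay below both untreated arrays, as they did in 22.5% of all genes. SLC16A1 itself was not analysed here.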
